A study of Homo sapiens with 65 samples.

Results

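The genes of fibroblast growth factor (FGF) signalling that encode its ligands, its receptors and its feedback inhibitors were followed through the differentiation of human embryonic stem cells. The 35 genes were chosen by symbol as members of the pathway, with earlier results of these data known, and all 35 were matched to the 58302 genes of the deposited count table. They were 15 secreted ligands (FGF1 to FGF10, FGF16, FGF17, FGF18, FGF20 and FGF22), 3 endocrine ligands (FGF19, FGF21 and FGF23), 4 FGF homologous factors (FGF11 to FGF14), 5 receptors (FGFR1 to FGFR4 and FGFRL1) and 8 feedback inhibitors (SPRY1, SPRY2, SPRY4, SPRED1, SPRED2, SPRED3, IL17RD and DUSP6).

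As background, a secreted FGF binds its receptor tyrosine kinase together with heparan sulfate, and the receptor signals through adaptor proteins to the RAS, RAF, MEK and ERK kinases. ERK activity switches on genes that in turn limit the pathway: Sprouty (SPRY) and SPRED proteins act on RAS and RAF, IL17RD (also called SEF) acts at the membrane, and DUSP6 removes phosphate from ERK. FGF2 keeps human pluripotent cells undifferentiated in culture, FGF4, FGF8 and FGF17 are ligands of the gastrulating embryo, and endothelial cells are known to respond to FGF2 through FGFR1.

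The cells were H9, an established human embryonic stem cell line that carries 2 reporters in every group: mCHERRY in 1 SOX17 allele and GFP in 1 RUNX1 allele, reporting the RUNX1C isoform (SOX17 mCHERRY/w RUNX1C GFP/w, here WT). The second genotype also lacked the DNA binding domain of RUNX1 on both alleles (RUNX1 -/-, here KO); the labels do not say how many clones it represents. The KO libraries of days 2 and 4 are named so in their titles, while their genotype field leaves out the deletion. Unsorted cells of the mesoderm protocol, a route to an endothelium and blood that resemble those of the embryonic aorta, were taken at days 0, 2 and 4, with 4 libraries for each genotype and day. The medium of this protocol held BMP4, activin A, VEGF, SCF and 10 ng/ml FGF2 over days 0 to 4, with SB431542 (a blocker of activin receptors) and CHIR 99021 (a GSK3 inhibitor) added over days 2 to 4. VEGF, SCF, FGF2 at 10 ng/ml and IGF2 followed over days 4 to 8. The medium after day 8 is not given here, and its part in changes between days 7 and 12 was not tested. Sorted cells of the same protocol, all positive for CD34, came from day 7 (SOX17-positive and SOX17-negative, both CD43-negative, 4 libraries each for WT, and 4 and 3 for KO) and day 12. At day 12 the sorted WT cells were SOX17-positive CD43-negative (4 libraries), SOX17-positive CD43-positive (2) and SOX17-negative CD43-positive (3), and the sorted KO cells were SOX17-positive CD43-negative (4) and SOX17-negative CD43-negative (1). WT cells of an endoderm protocol (activin A, an agent given as CHIR and PI-103, a PI3K inhibitor, at the start, then activin A and DMH-1, a BMP receptor blocker, with no FGF2 listed) were taken unsorted at days 0, 2, 4 and 7, with 3 libraries a day. Nothing in the labels says that replicates were separate cultures, so p-values measure the spread between these libraries.

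The 65 libraries held 10366048 to 19081031 counts each. Endothelial markers summed to between 9280 and 10700 CPM (counts per 1000000 library counts) in the SOX17-positive cells of day 7, WT and KO together, and to between 117 and 308 CPM in the SOX17-negative CD43-positive cells of day 12, where blood markers summed to 967 to 1270 CPM. The edited gene RUNX1 stood at 91.6 to 153 CPM in WT and 28.6 to 42.5 CPM in KO SOX17-positive cells of day 7, while at day 4 its ranges overlapped (28 to 65.5 CPM in WT, 2.96 to 64.8 CPM in KO); its count includes exons outside the deleted stretch and so does not by itself check the deletion. Libraries 1 of both genotypes stood apart at day 0 (EGR1, an immediate early gene, at 97 and 100.0 CPM against 3.71 to 24.7 CPM in the other mesoderm libraries of that day). Calls that rest on them are given with and without them. Protocol and sorting coincide with the libraries' number series, so that their parts cannot be told apart, with 1 exception: endoderm library 3 of day 4 carries the number just before those of the sorted libraries. Without it 17 members were called between days 2 and 4 of the endoderm protocol, of which 16 were among the 19 called with it. The share of all genes called without it is not given here.

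The windows just before start sites of 4 feedback inhibitors are shown because these genes carried the main contrasts below: SPRY1 and SPRY2 changed in opposite directions between days 2 and 4, SPRY4 was the member called between SOX17-positive and SOX17-negative cells in both genotypes, and IL17RD was the member called between genotypes. Each is 250 bases of RefSeq's table (build GRCh38.p14), written 5′ to 3′ on the gene's strand and ending at the base before the start: chr4:123398136-123398385 (plus strand) for SPRY1, chr13:80341127-80341376 (minus) for SPRY2, chr5:142324248-142324497 (minus) for SPRY4 and chr3:57170318-57170567 (minus) for IL17RD. Capitals mark the core CCGGAA bound by ETS factors, the family to which the ERK-responsive ETV4 and ETV5 belong.
SPRY1: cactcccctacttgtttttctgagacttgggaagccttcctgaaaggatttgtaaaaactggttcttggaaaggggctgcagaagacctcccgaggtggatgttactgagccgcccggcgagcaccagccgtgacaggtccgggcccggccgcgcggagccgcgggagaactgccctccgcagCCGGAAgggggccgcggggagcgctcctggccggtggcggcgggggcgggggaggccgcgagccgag
SPRY2: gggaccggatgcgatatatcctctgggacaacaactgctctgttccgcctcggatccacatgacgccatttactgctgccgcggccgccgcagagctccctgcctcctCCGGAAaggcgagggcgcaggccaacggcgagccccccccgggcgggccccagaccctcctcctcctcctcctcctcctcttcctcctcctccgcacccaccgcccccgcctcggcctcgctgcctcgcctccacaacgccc
SPRY4: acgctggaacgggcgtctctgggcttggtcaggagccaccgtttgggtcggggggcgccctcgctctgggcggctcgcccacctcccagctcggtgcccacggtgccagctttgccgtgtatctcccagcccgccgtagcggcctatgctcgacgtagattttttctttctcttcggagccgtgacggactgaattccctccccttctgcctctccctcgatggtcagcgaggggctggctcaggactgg
IL17RD: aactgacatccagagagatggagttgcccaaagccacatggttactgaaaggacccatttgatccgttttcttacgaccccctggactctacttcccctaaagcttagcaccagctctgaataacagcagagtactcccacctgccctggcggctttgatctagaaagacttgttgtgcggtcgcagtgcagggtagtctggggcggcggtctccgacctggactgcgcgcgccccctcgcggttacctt

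The ETS core was searched on both strands (CCGGAA or TTCCGG). Among 49 such windows, which covered 27 of the 35 genes, only the SPRY1 and SPRY2 windows shown held it, a share of 4.08% of the windows against 14.5% of all 35116 windows in the table. SPRY1 had 2 windows, SPRY2 3 and IL17RD 2, of which 1 each is shown. Member windows on chromosome 8, where FGF17, FGF20 and FGFR1 lie, were not searched. FGF4, FGF8, FGF9, FGF16 and FGF19 also had no window among the 49. The RUNX core (TGTGGT or ACCACA) was in 3 of the 49 windows, those of FGF1, FGFR2 and SPRED2 (6.12%, against 11% of all windows). The SOX core (ACAATG or CATTGT) was in 4 windows of FGF1, FGF3 and FGF18 (8.16%, against 9.29%). A match describes these letters only, and an absent match says nothing of the factor.

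Tests were run on the counts of all genes with edgeR's quasi-likelihood test, and a gene is called, and said to rise or fall, when its Benjamini-Hochberg adjusted p is under 0.05. Of the 35 members, 5 had too few counts to be tested in any comparison: FGF5 (30 counts over all libraries), FGF6 (34), FGF7 (77), FGF20 (62) and FGF21 (71), none above 0.707 CPM in a library. The number tested was 28 in the unsorted mesoderm cells, 26 in the endoderm cells and 22 in the sorted cells; low members pass such a filter through the groups where they are high, so counts over the tested members are descriptions.

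Between days 0 and 2 of the mesoderm protocol the ligands changed over: FGF2 fell, while FGF4, FGF10 and FGF17, ligands of the primitive streak and early mesoderm, rose. In WT, 8 of the 28 tested members rose and 9 fell, against 45.1% of all tested genes called in either direction (22.2% higher, 22.9% lower). In KO, 6 rose and 8 fell, against 43.3% of all genes (21.6% higher, 21.7% lower). The next step, to day 4, had 6 rising and 13 falling members in WT (51.4% of all genes called, 25.9% higher and 25.5% lower) and 7 and 13 in KO (50.5%, 26% higher and 24.5% lower). Primitive streak markers reached 1360 to 2030 CPM in these day 2 WT libraries.

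FGF2, the ligand also supplied in this medium, was at 200, 369, 265 and 293 CPM in WT libraries 1 to 4 at day 0. It was at 44.9, 38.2, 49.7 and 40 CPM at day 2, and at 14.3, 8.55, 24.2 and 10.9 CPM on day 4. Every library was lower than every library of the preceding day, with log2 changes of -2.72 ± 0.25 (SE, n = 4 per day, edgeR adjusted p = 8.22e-09) and then -1.59 ± 0.25 (adjusted p = 1.48e-05). In KO cells FGF2 changed by -2.16 ± 0.24 and -2.30 ± 0.25 (log2) over the same steps, from a mean of 246 CPM through 56 to 11.1 CPM.

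FGF4, an early ligand that lies on chromosome 11 (GRCh38, 69771016 to 69775403, minus strand) between FGF19 (69698232 to 69704642) and FGF3 (69809969 to 69819024), was transient. Its WT levels were 1.33, 5.91, 5.92 and 7.94 CPM at day 0, 49.6, 35.5, 56.5 and 37.6 CPM at day 2, and 1.4, 0.295, 1.11 and 0.351 CPM on day 4. The day 2 libraries lay apart from those before and after, with log2 changes of +3.08 ± 0.52 (adjusted p = 4.91e-05) and -5.80 ± 0.63 (adjusted p = 1.38e-07). KO libraries gave +3.32 ± 0.53 and -5.62 ± 0.62 (-6.53 without KO library 1 of day 4).

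FGF17, a ligand of the FGF8 subfamily, followed the same course at a lower level. In WT it was at 0.182, 0.152, 0.063 and 0.22 CPM at day 0, at 4.42, 7.24, 10.5 and 7.67 CPM at day 2 and at 0.0583, 0.177, 0.185 and 0.14 CPM on day 4. The rise was +5.50 ± 0.39 (log2, adjusted p = 2.09e-10) and the fall -5.65 ± 0.39 (adjusted p = 1.91e-10). FGF10, a mesodermal ligand of FGFR2, rose from 0.121 to 0.379 CPM at day 0 to 4.98, 8.3, 8.68 and 16.6 CPM at day 2 (log2 change +4.99 ± 0.46, adjusted p = 1.07e-08). It then fell to 1.28, 2.24, 2.89 and 2.03 CPM at day 4 (-2.19 ± 0.37, adjusted p = 3.59e-05).

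FGF9, a ligand that rose at both steps in WT, went from a mean of 0.0904 CPM at day 0 to 0.791 CPM at day 2 and then to 9.97, 4.89, 5.6 and 3.65 CPM at day 4. Its second step was +2.95 ± 0.65 (log2, adjusted p = 0.000671) in WT and +1.96 ± 0.61 (adjusted p = 0.0103) in KO, where library 4 stayed at 0.228 CPM and the call ended without library 1 of day 4 (+1.48, adjusted p = 0.0557). FGF16, a low member of the FGF9 subfamily, fell from 2.55 to 3.87 CPM at day 0 to 0.0965 to 0.374 CPM at day 2 (-3.78 ± 0.45, adjusted p = 4.02e-07) and had 1 count in the 4 WT libraries of day 4, a ratio to day 2 of 14.8-fold lower with a 95% counting interval of 2.14 to 635. FGF1 fell by 4.16 on the log2 scale over the first step (adjusted p = 0.00427), but its day 0 levels were 45.5, 4.09, 2.58 and 2.65 CPM. Library 1 alone held the high level; without it the change was -1.91 and not called (adjusted p = 0.106), and without libraries 1 of both genotypes it was -1.90 (adjusted p = 0.0251).

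FGF19 and FGF3, the chromosome 11 neighbours of FGF4, were set apart by single libraries at day 4. FGF19, an endocrine ligand best known from bile acid control, was at 3.64 to 6.61 CPM in WT at day 0 and 18.1 to 26.5 CPM at day 2 without passing the test (adjusted p = 0.0961, with the shared spread of this fit). At day 4 it was at 5.83, 35, 204 and 30.8 CPM in WT libraries 1 to 4 and at 7.09, 22.4, 35.8 and 527 CPM in KO libraries. FGF3, another ligand of the early embryo, was at 0, 0.413, 3.01 and 0.351 CPM in the WT libraries and at 0, 0.373, 0.634 and 10.3 CPM in the KO libraries of that day. Both genes were therefore highest in WT library 3 and KO library 4. In KO the rise from day 2 passed the test for FGF19 (+2.77 ± 0.93, adjusted p = 0.0172) and FGF3 (+2.55 ± 1.06, adjusted p = 0.0496), and without KO library 4 of day 4 the log2 changes were -0.02 and -0.49. The FGF3 call also ended without any 1 of the KO libraries of day 2 (adjusted p = 0.0703 to 0.0999).

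**Figure D1:**
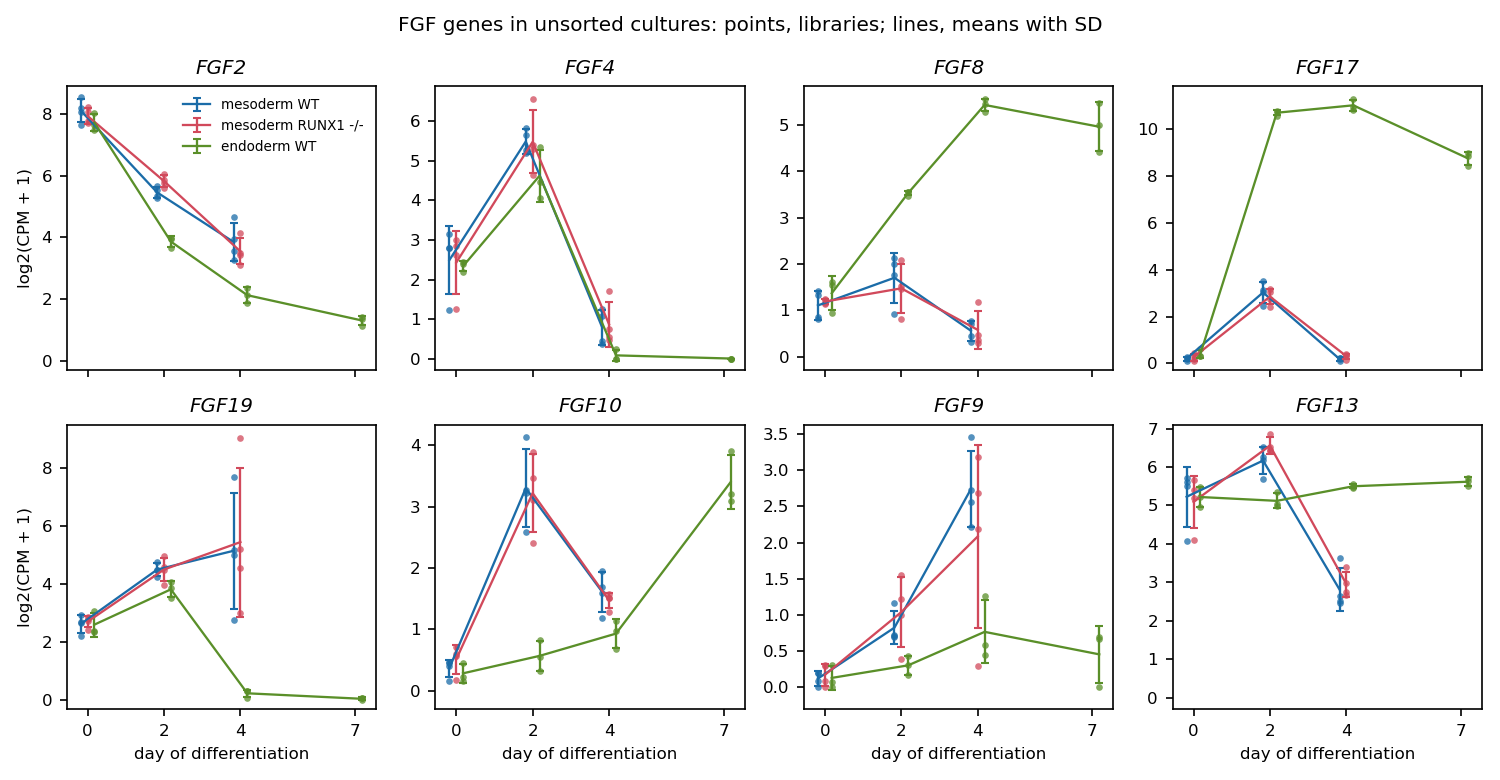
Levels of 7 FGF ligands and of FGF13 in each unsorted library, as log2(CPM + 1), against the day, for the mesoderm protocol in WT and KO and the endoderm protocol in WT; points are libraries, and lines join group means with their SD. FGF2 falls under both protocols, FGF4 peaks at day 2 under both, and FGF17 lies between 1530 and 2500 CPM in the endoderm libraries of days 2 and 4 while staying at or under 10.5 CPM in the mesoderm libraries.

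The homologous factors, which stay inside the cell and act on sodium channels rather than on FGF receptors, also moved. FGF11 was at 45.2, 23, 50.8 and 29.6 CPM in WT at day 0 and at 7.6, 4.24, 7.1 and 5.42 CPM at day 2 (log2 change -2.64 ± 0.34, adjusted p = 1.37e-06). FGF13 rose over the first step (+0.85 ± 0.32, adjusted p = 0.0339; not called without library 1 of day 0 or library 1, 3 or 4 of day 2, adjusted p = 0.0569 to 0.104) and was at 91.1, 50.5, 76 and 72 CPM at day 2. It then fell to 4.55, 4.66, 11.4 and 5.26 CPM at day 4 (-3.50 ± 0.36, adjusted p = 5.69e-08), below every library of the earlier days.

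Among the 5 receptors, 2 rose and 2 fell between days 2 and 4 in WT. FGFR1, the main receptor of pluripotent cells, was at 368, 230, 261 and 245 CPM in WT at day 0, 338, 353, 313 and 337 CPM at day 2 and 214, 233, 223 and 222 CPM on day 4. Only its second step passed the test (log2 change -0.59 ± 0.15, adjusted p = 0.00303). FGFR2, whose splice forms answer to different ligands and are not separated by gene counts, was at 131, 72, 79.4 and 73.9 CPM at day 0, at 37, 39.6, 38.1 and 39.9 CPM at day 2 and at 176, 431, 92.3 and 370 CPM on day 4. The day 2 libraries agreed closely and the day 4 libraries were spread, with log2 steps of -1.25 ± 0.45 (adjusted p = 0.0259) and +2.80 ± 0.47 (adjusted p = 3.54e-05). Without libraries 1 of day 0 the first step was -0.94 and not called (adjusted p = 0.0949), nor was it without WT library 1 or 3 of day 2 (adjusted p = 0.0541 and 0.053). In the KO libraries of day 4 FGFR2 was at 90.7, 439, 244 and 91.7 CPM. FGFR4 fell between days 2 and 4 (-1.14 ± 0.24, adjusted p = 0.000467), FGFRL1, a receptor without a kinase domain, rose (+0.63 ± 0.11, adjusted p = 6.21e-05), and FGFR3 was at 31.9 to 54.7 CPM in the WT day 4 libraries (+0.15 ± 0.30, adjusted p = 0.706).

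Levels of different receptors were compared per length, on the deposited log2(RPKM + 1) scale. FGFR1 was highest at day 0 (4.53 ± 0.35, SD, n = 4, WT) and day 2 (4.79 ± 0.07), where FGFRL1 came next (4.01 ± 0.10 and 3.55 ± 0.19). At day 4 FGFR2 had the highest mean (4.97 ± 1.01) over FGFR1 (4.23 ± 0.06) and FGFRL1 (4.13 ± 0.14), and its spread covered both. The lowest place passed from FGFR3 at day 0 (2.97 ± 0.68) to FGFR2 at day 2 (2.62 ± 0.03) and FGFR4 at day 4 (2.29 ± 0.40).

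**Figure D2:**
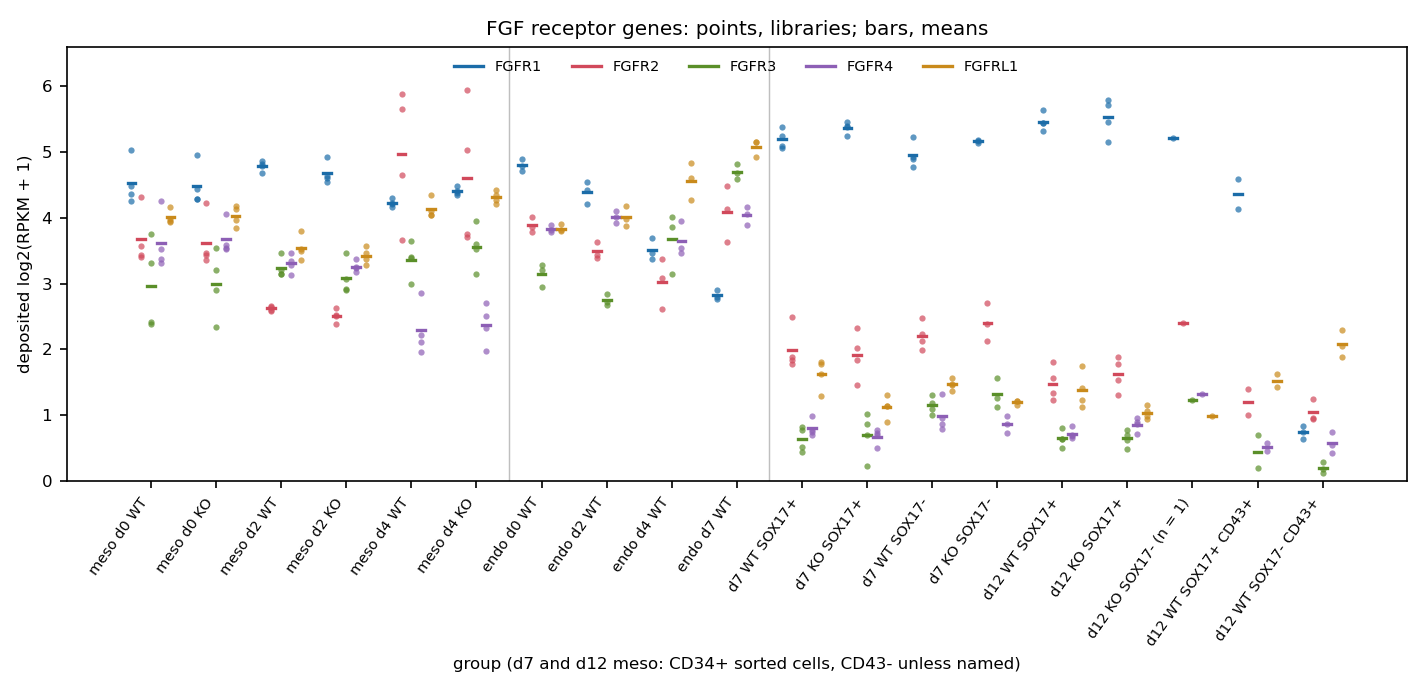
Deposited log2(RPKM + 1) levels of the 5 receptors in each group; points are libraries and bars are group means. FGFR1 leads in the day 0 cells and in every sorted group except the SOX17-negative CD43-positive cells of day 12, where no receptor has a mean above 2.08; in the endoderm cells of day 7 it is the lowest of the 5.

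The feedback inhibitors did not move as 1 group. Over the first WT step SPRED2 rose (log2 change +1.03 ± 0.20, adjusted p = 0.000215), SPRED1 (-1.08 ± 0.27, adjusted p = 0.00244) and SPRED3 (-1.51 ± 0.57, adjusted p = 0.0347) fell, and 5 of the 8 did not pass the test. The SPRED3 change rested on libraries 1 of day 0 (16.6 CPM in WT against 3.21 to 4.93 CPM) and was -0.53 without them (adjusted p = 0.279); its call also ended without library 1, 3 or 4 of day 2 (adjusted p = 0.0648 to 0.0939). Over the second step 3 rose (SPRY1, SPRED1 and DUSP6) and 3 fell (SPRY2, SPRY4 and IL17RD), where 51.4% of all tested genes were called.

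SPRY4, a Sprouty protein whose gene is a common readout of ERK activity, was at 501, 249, 214 and 258 CPM in WT at day 0 and at 410, 444, 352 and 546 CPM at day 2 (log2 change +0.47 ± 0.33, adjusted p = 0.258). Its day 2 levels all lay above those of day 0 libraries 2 to 4, and the change without library 1 is not given here. It stood at 92.5, 45, 107 and 45.6 CPM at day 4, below every earlier library (-2.60 ± 0.35, adjusted p = 2.18e-06). IL17RD was at 315, 312, 266 and 323 CPM, then at 177, 259, 280 and 200 CPM, then at 138, 88.7, 121 and 81.5 CPM over the 3 days. Its second step was -1.09 ± 0.20 (adjusted p = 7.7e-05) and its first -0.44 ± 0.19 (adjusted p = 0.0666).

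SPRY1, by contrast, was at 17.2, 18.1, 18.3 and 17.5 CPM at day 0, 7.53, 16.4, 11 and 7.29 CPM at day 2 and 52.6, 55, 92.3 and 60.6 CPM on day 4. All day 4 libraries lay above all earlier ones (log2 change from day 2 of +2.62 ± 0.38, adjusted p = 5.88e-06). SPRY2 was at 97.7, 43.1, 36.7 and 36.8 CPM at day 0, 75.3, 67.9, 76.8 and 73.9 CPM at day 2 and 36.7, 47.2, 31.4 and 30 CPM on day 4. Its first step did not pass the test, although its day 2 levels all lay above those of day 0 libraries 2 to 4. The change without library 1 is not given here. SPRY2 fell over the second step (-1.01 ± 0.30, adjusted p = 0.00796), so that SPRY1 and SPRY2 went in opposite directions.

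DUSP6 was at 84.3, 60.2, 49 and 60 CPM, then at 68.7, 43.6, 51.6 and 78.9 CPM, then at 114, 78.5, 215 and 67.4 CPM in WT over the 3 days. The second step passed the test (+0.95 ± 0.37, adjusted p = 0.0374) although the days overlapped, and WT library 3 was the high one. Without that library the change was +0.53 (adjusted p = 0.229), and the call also ended without library 1 of day 4 or library 1, 2 or 3 of day 2 (adjusted p = 0.0504 to 0.105). The KO change was +1.06 ± 0.37 (adjusted p = 0.0217), not called without KO library 1 or 4 of day 4 or library 4 of day 2 (adjusted p = 0.0577 to 0.114). KO libraries of day 4 were at 169, 48.6, 107 and 221 CPM for DUSP6 and at 39.8, 37.5, 72.8 and 154 CPM for SPRY1. Markers of mesenchyme and smooth muscle summed to 857 CPM in WT library 3 against 3130 to 5670 CPM in the other WT libraries of day 4, and to 1420 CPM in KO library 4 against 2170 to 6660 CPM. These are also the libraries highest in FGF19 and FGF3; the part of these markers in the result was not tested, and in unsorted cells fewer cells of a type and less RNA per cell cannot be told apart.

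Other genes of the pathway moved at the same steps. Of 12 ERK target genes, 2 rose and 6 fell in WT between days 0 and 2, with a median log2 change of -1.17 against -0.0021 over all tested genes. FOSL1 (-5.16) and EGR1 (-3.61), both immediate early factors, fell most; both rested on WT library 1 of day 0, without which the changes were -1.70 (adjusted p = 0.146) and -1.45 (adjusted p = 0.121). The median of the 12 genes was then -0.62, with 2 rising and 3 falling. Without libraries 1 of both genotypes it was -0.60, with 4 rising and 6 falling. Shares of all genes called without these libraries are not given here. ETV4, ETV5 and DUSP5 did not pass the test at this step. Between days 2 and 4, ETV4 fell from a mean of 145 to 45 CPM (-1.69 ± 0.26) and DUSP5 from 76.8 to 12.4 CPM (-2.63 ± 0.74), while DUSP4 rose from 4.61 to 55.6 CPM (+3.61). ETV5 changed by +0.45 without passing the test. Of the 18 genes of heparan sulfate chains and core proteins, 2 rose and 5 fell over the first step, among them GPC4, a glypican that carries heparan sulfate (2150 to 249 CPM, -3.14). Among 9 co-receptors and binding proteins (8 tested), FLRT2 rose from 2.66 to 40.1 CPM (+3.86 ± 0.50) and FLRT3 likewise (+2.67), and FGFBP3, a carrier of secreted FGF, fell (-4.12). Of the 15 adaptors and cascade kinases, 1 rose and 5 fell at the first step and 7 rose and 3 fell at the second. The share called was 38.9% for the heparan sulfate genes at the first step and 40% and 66.7% for the adaptors and kinases at the 2 steps, against 45.1% and 51.4% of all genes.

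No member passed the test between KO and WT in the unsorted cells. Of 28 tested members, 0 were called at days 0, 2 and 4, where edgeR called 0% of all genes, and DESeq2 and limma called 0 members as well. At an unadjusted p under 0.05 there were 0, 1 (FGF16) and 0 members, against 146, 974 and 987 of all 21612 tested genes. The median log2 difference, KO minus WT, over the tested members was -0.01 at day 0, -0.02 at day 2 and 0.21 at day 4, against -0.00656, -0.0162 and 0.0133 over all genes. At day 4 FGFR1 was at 214 to 233 CPM in WT and at 243 to 274 CPM in KO; these did not overlap, with a difference of +0.21 ± 0.15 (log2, adjusted p = 1).

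Under the endoderm protocol the ligand that dominated was FGF17. It was at 0.23, 0.241 and 0.52 CPM at day 0, at 1530, 1710 and 1780 CPM at day 2, at 1980, 1820 and 2500 CPM at day 4 and at 462, 504 and 346 CPM on day 7. The first step was +12.28 ± 0.27 (log2, SE, n = 3 per day, edgeR adjusted p = 6.14e-13), the second +0.45 ± 0.15 (adjusted p = 0.0222; not called without library 1 or 2 of day 2 or library 3 of day 4, adjusted p = 0.051 to 0.0963) and the last -2.16 ± 0.15 (adjusted p = 5.06e-07). Definitive endoderm markers summed to 9320 to 9760 CPM at day 2. In all, 7 of the 26 tested members rose and 5 fell by day 2, against 55.5% of all genes called in either direction (28.7% higher, 26.8% lower).

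FGF2 fell at each endoderm step. It was at 260, 197 and 179 CPM at day 0, 14.6, 11.6 and 14.8 CPM at day 2, 4.18, 2.66 and 3.45 CPM at day 4 and 1.71, 1.21 and 1.57 CPM on day 7. Each day lay below the one before, by log2 changes of -4.01 ± 0.17 (adjusted p = 3.45e-10), -1.87 ± 0.19 (adjusted p = 4.16e-06) and -1.10 ± 0.25 (adjusted p = 0.00614). FGF8, the close relative of FGF17, rose from 0.92, 2.05 and 1.93 CPM to 10.8, 10.8 and 10.1 CPM and then to 38, 43.1 and 46.1 CPM over days 0, 2 and 4 (+2.66 ± 0.30, adjusted p = 5.37e-06, then +2.12 ± 0.24, adjusted p = 8.71e-06).

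FGF4 was again transient. FGF19 was transient under this protocol. Its course under the mesoderm protocol, given above, was different. FGF4 was at 4.25, 3.56 and 4.39 CPM at day 0 and at 15.6, 21.3 and 39.6 CPM on day 2 (+2.59 ± 0.34, adjusted p = 4.08e-05). It had 3 counts in the day 4 libraries together, a ratio to day 2 of 397-fold lower with a 95% counting interval of 136 to 1930. FGF19 was at 4.2, 7.48 and 4.16 CPM, then 10.5, 13.8 and 15.7 CPM, then 0.253, 0.0665 and 0.242 CPM (+1.27 ± 0.25, adjusted p = 0.000678, then -5.95 ± 0.40, adjusted p = 6.01e-08). FGF10 rose late, from 1.2, 0.598 and 0.97 CPM at day 4 to 8.23, 14 and 7.52 CPM at day 7 (+3.52 ± 0.35, adjusted p = 9.26e-06).

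Receptor levels moved away from FGFR1 in the endoderm cells. FGFR1 was at 329, 313 and 367 CPM at day 0, 226, 263 and 295 CPM at day 2, 120, 113 and 144 CPM at day 4 and 67.6, 64.4 and 72.6 CPM on day 7. Its 3 steps all passed the test (-0.42 ± 0.11, adjusted p = 0.00588; -0.93 ± 0.11, adjusted p = 1.7e-05; -0.77 ± 0.11, adjusted p = 0.00026). FGFR3 rose from 26.3, 30.2 and 28.3 CPM at day 2 to 35.9, 62.7 and 68.8 CPM at day 4 and 99.6, 116 and 105 CPM on day 7 (+1.11 ± 0.19 and +1.04 ± 0.19). FGFR2 was at 53.2, 37.4 and 67.3 CPM at day 4 and at 112, 141 and 76.2 CPM on day 7 (+1.17 ± 0.22, adjusted p = 0.00141). Per length, FGFRL1 led at day 7 (log2(RPKM + 1) of 5.08 ± 0.14, SD, n = 3), followed by FGFR3 (4.70 ± 0.12), FGFR2 (4.08 ± 0.42) and FGFR4 (4.04 ± 0.14), and FGFR2 and FGFR4 did not differ beyond their spread. FGFR1 was lowest (2.82 ± 0.08).

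The endoderm inhibitors also divided. SPRED2 rose from 40.6, 40.9 and 38 CPM to 108, 109 and 111 CPM and then to 178, 163 and 171 CPM over days 0, 2 and 4, with little spread (+1.41 ± 0.08, adjusted p = 6.88e-09, then +0.77 ± 0.08, adjusted p = 4.17e-06). IL17RD rose from 245, 342 and 170 CPM to 403, 414 and 495 CPM (+0.74 ± 0.18, adjusted p = 0.00377) and fell to 164, 161 and 133 CPM at day 4 (-1.39 ± 0.19, adjusted p = 4.49e-05), where it was at 123, 118 and 119 CPM at day 7. SPRY1 was at 16.7, 15.6 and 21.8 CPM at day 2, 9.81, 6.65 and 7.39 CPM at day 4 and 14.2, 14.6 and 16.3 CPM on day 7, a fall (-1.06 ± 0.18, adjusted p = 0.000313) and a rise (+1.03 ± 0.18, adjusted p = 0.00101). SPRY2 rose between days 2 and 4, from 42.5, 38.6 and 44.9 CPM to 65.4, 66.7 and 52.9 CPM (+0.68 ± 0.16, adjusted p = 0.00437).

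SPRY4 and DUSP6 passed the test at no endoderm step. SPRY4 was at 125, 345 and 169 CPM at day 0, 229, 244 and 310 CPM at day 2, 184, 266 and 117 CPM at day 4 and 134, 152 and 138 CPM on day 7. DUSP6 was at 52.6, 109 and 31.4 CPM, then 28.1, 30.4 and 43.1 CPM, then 32.3, 51.6 and 13.8 CPM, then 22.4, 12.4 and 33.1 CPM. Library 2 of day 0 was highest for both and for EGR1 (77.1 CPM against 14.8 and 14.6 CPM); its part in these values was not tested. Counts over the endoderm steps were 9 risen and 10 fallen of 26 between days 2 and 4 (42.4% of all genes called, 22.2% higher and 20.2% lower), and 6 and 5 between days 4 and 7 (21.3%, 11.2% higher and 10.1% lower). Among the other pathway genes, FLRT3 rose from 1.41 to 153 CPM (+6.68) and DUSP4, an ERK phosphatase of the nucleus, from 20.7 to 334 CPM (+3.96) by day 2 and to 920 CPM by day 4 (+1.58). ETV5 rose from 21.2 to 66.1 CPM by day 2 (+1.59), and both ETV4 (-1.83) and ETV5 (-0.91) fell by day 4 and again by day 7 (-1.28 and -1.47).

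The protocols were compared through the change from day 0, the endoderm change minus the mesoderm WT change, in 1 fit of 21 WT libraries. By day 2 the difference passed the test upward for 9 of 29 members and downward for 3, where 29.5% of all genes were called (15.6% upward, 13.9% downward), and by day 4 upward for 12 and downward for 7 (40.4%, 20.5% upward and 19.9% downward). FGF17 differed most (+6.79 ± 0.90, adjusted p = 1.53e-05, by day 2; +12.88 ± 1.16, adjusted p = 2.56e-08, by day 4). By day 4 FGF8 was higher (+6.09 ± 0.56, adjusted p = 3.15e-08) and FGF19 lower (-8.33 ± 1.29, adjusted p = 2.72e-05; -6.84 without mesoderm WT library 3 of day 4) in the endoderm change. Among the inhibitors SPRY2, SPRY4, SPRED1, SPRED2 and IL17RD were higher in the endoderm change by day 4 (+0.82 to +2.03) and DUSP6 lower (-1.78 ± 0.61, adjusted p = 0.0242). SPRY1 was higher by day 2 (+1.15 ± 0.33, adjusted p = 0.0128) and lower by day 4 (-2.55 ± 0.33, adjusted p = 3.73e-06). The DUSP6 call ended without mesoderm WT library 3 of day 4 (-1.36, adjusted p = 0.0598), without endoderm library 2 of day 0 (-1.16, adjusted p = 0.131) and without endoderm library 3 of day 4 (-1.41, adjusted p = 0.0694). The SPRED1 difference (+0.82 ± 0.31, adjusted p = 0.0385) ended without any 1 of 7 libraries (adjusted p = 0.0503 to 0.114) and IL17RD's (+0.88 ± 0.29, adjusted p = 0.0207) without endoderm library 3 of day 0 (adjusted p = 0.0679). FGF2 was lower in the endoderm change at both days (-1.27 ± 0.34 and -1.57 ± 0.37); the media differ in added FGF2 among other agents, and the library series differ too, so the part of each cannot be told apart.

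**Figure D3:**
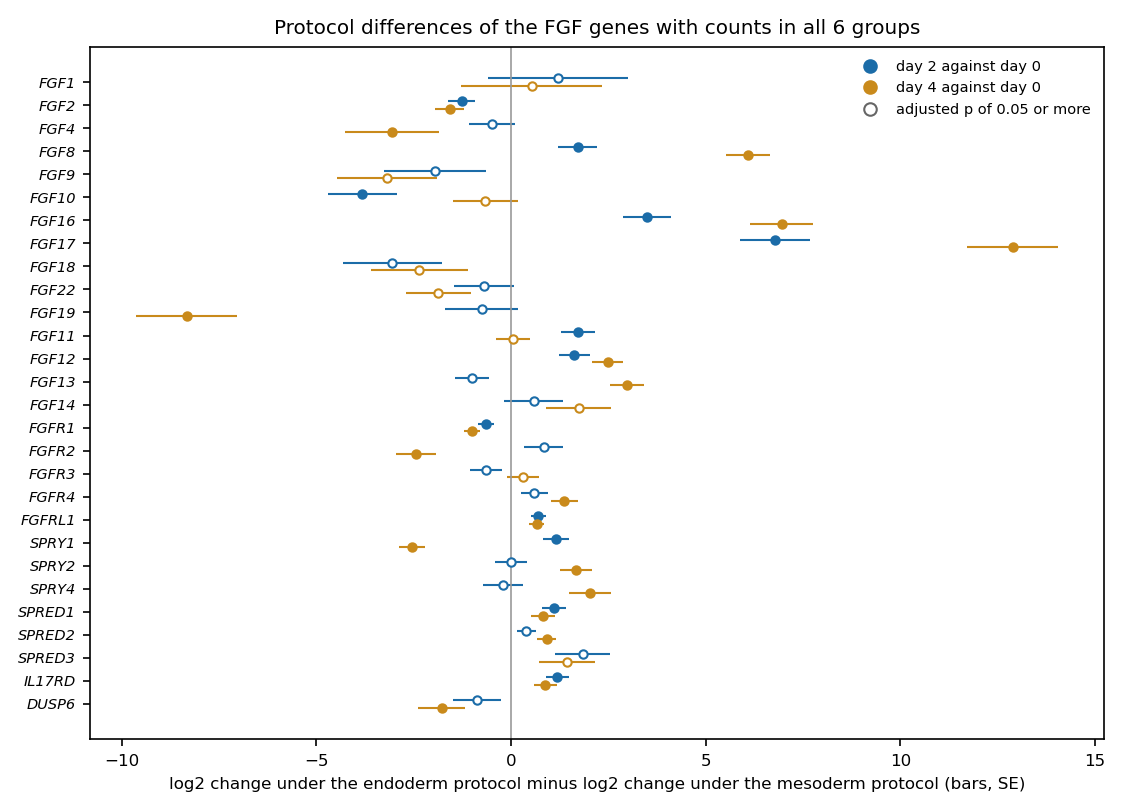
Difference in the log2 change from day 0 between the protocols (endoderm minus mesoderm, WT, bars are SE), for each member with counts in all 6 groups, by day 2 and by day 4; filled points passed the test. FGF17, FGF16 and FGF8 lie far to the right and FGF19 far to the left at day 4. The day 4 point of FGF16 rests on 1 count in the mesoderm libraries of that day. In the endoderm libraries FGF16 was at 1.84 to 2.23 CPM at day 0 and 1.06 to 2.3 CPM at day 4. The day 4 point of FGF4 rests on 3 counts in the endoderm libraries of that day. FGF3 had no count in the endoderm libraries and is not drawn.

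The sorted SOX17-positive cells of day 7, with endothelial markers at 9280 CPM or more, were set against the unsorted WT cells of day 4. Mesenchyme and smooth muscle markers summed to 193 to 433 CPM in them against 857 to 5670 CPM at day 4, and mitochondrial genes held 5.15% to 6.19% against 3.2% to 3.76% of the counts; the part of these in the values below was not tested. Of 20 tested members 4 were higher and 9 lower, with 62.8% of all genes called (31.7% higher, 31.1% lower). FGFR1 was at 445, 476, 430 and 531 CPM, above every day 4 library (+1.03 ± 0.10, adjusted p = 9.58e-06), and the other 4 receptors were lower. FGFR3 was at 2.18, 3.47, 1.78 and 3.79 CPM (-4.06 ± 0.26, adjusted p = 8.7e-07), FGFR2 at 21.4, 18.8, 20.3 and 36.2 CPM (-3.52 ± 0.47, adjusted p = 9.8e-05) and FGFRL1 at 6.34, 8.79, 10.5 and 10.6 CPM (-2.96 ± 0.17, adjusted p = 4.22e-07). Per length FGFR1 stood at 5.19 ± 0.14 (log2(RPKM + 1), SD, n = 4) and the next receptor, FGFR2, at 2.00 ± 0.33.

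FGF2 was higher in these cells than at day 4, at 54.6, 41.4, 60.7 and 47.8 CPM (+1.77 ± 0.27, adjusted p = 0.000264), and so was FGF11, at 35.6, 32.9, 35 and 46.4 CPM (+2.26 ± 0.25, adjusted p = 3.27e-05). FGF19 had 0 counts in the 4 libraries, at least 1530-fold lower than at day 4 when set against a floor of 3 counts over the group, and at least 520-fold lower without WT library 3 of day 4. IL17RD was lower, at 17.8, 16.3, 14.5 and 12.8 CPM (-2.85 ± 0.19, adjusted p = 1.04e-06), with SPRED2 (-2.17 ± 0.15) and SPRED1 (-1.41 ± 0.13). SPRY1, SPRY4 and DUSP6 did not pass the test here, and SPRY2 was slightly lower (-0.49 ± 0.16, adjusted p = 0.0224; not called without library 2 of day 4 or library 2 or 4 of day 7, adjusted p = 0.0505 to 0.0618). The co-receptor KL was higher (0.619 to 25.3 CPM, +5.26 ± 0.32) and so was DUSP5, an ERK phosphatase (12.4 to 124 CPM, +3.28), while ETV4 was lower (45 to 9.18 CPM, -2.35). Sorting, day and library series all differ in this comparison and cannot be told apart.

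Against the endoderm cells of the same day, all 22 tested members passed the test, 15 higher in endoderm and 7 lower, where 71.6% of all genes were called (35.3% higher, 36.3% lower). Endoderm had the higher FGF17 (+9.57 ± 0.24, adjusted p = 8.67e-12), FGFR3 (+5.50 ± 0.20, adjusted p = 1.5e-10), FGFR4 (+4.37 ± 0.16), FGFRL1 (+3.97 ± 0.16) and IL17RD (+3.21 ± 0.11, adjusted p = 1.43e-10). The SOX17-positive cells had the higher FGF2 (endoderm minus sorted -4.85 ± 0.19, adjusted p = 3.9e-10), FGFR1 (-2.54 ± 0.11, adjusted p = 9.31e-10), SPRY1 (-1.60 ± 0.13) and DUSP6 (-1.55 ± 0.24). Mesenchyme and smooth muscle markers were at 891 to 1490 CPM in the endoderm libraries, and their part was not tested. Here too protocol, sorting and library series cannot be told apart.

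Within the sorted CD34-positive cells of day 7, SPRY4 was the member called between SOX17-positive and SOX17-negative cells in both genotypes. In WT it was at 53.4, 48.1, 37.6 and 58.6 CPM in SOX17-positive and at 21.8, 22.4, 19.8 and 21.1 CPM in SOX17-negative libraries (log2 difference +1.20 ± 0.28, adjusted p = 0.0208). In KO it was at 69.6, 68.5, 117 and 79.5 CPM against 33.3, 27 and 38.5 CPM (+1.35 ± 0.30, adjusted p = 0.0292). Neither pair of groups overlapped, which also held in both genotypes for FGF10, FGF12, FGFR3 and DUSP6. In all, 6 tested members lay apart in WT and 10 in KO. The share of all genes lying apart was not computed, so this is a description. Of the 22 tested members 2 were called in WT, where 1.6% of all genes were, and 1 in KO (0.67%). With the run of consecutive library numbers as a block, 4 were called in WT, SPRY4, FGF12, FGFR3 and DUSP6 (adjusted p = 0.00549 to 0.0452), and SPRY4 in KO (0.00656). The share of all genes called with this block is not given here, so these counts too are descriptions.

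The other WT call was FGF12, a homologous factor, at 3.08, 2.91, 3.18 and 4.1 CPM against 1.16, 1.4, 1.36 and 2.41 CPM (+1.05 ± 0.25, adjusted p = 0.023; not called without SOX17-negative library 1, 2 or 3 or SOX17-positive library 4, adjusted p = 0.0554 to 0.104). DUSP6 was at 81.6, 68.9, 85.8 and 76.2 CPM in SOX17-positive and 60.7, 43.8, 51.3 and 47 CPM in SOX17-negative WT libraries without passing the test (+0.61 ± 0.17, adjusted p = 0.0709), and in KO its difference was +0.62 ± 0.19 (adjusted p = 0.141). FGFR3 was lower in SOX17-positive cells in both genotypes, again short of the threshold (-1.12 ± 0.36, adjusted p = 0.133, in WT). FGFR1, FGF2, SPRY1, SPRY2 and IL17RD did not pass the test. The SPRY4 call in WT ended without SOX17-positive library 1 (adjusted p = 0.0608) or 4 (0.0834) and without SOX17-negative library 2 (0.0508) or 4 (0.0563). In KO it ended without any 1 of the 3 SOX17-negative libraries or SOX17-positive library 3 or 4 (adjusted p = 0.0587 to 0.228). Mesenchyme and smooth muscle markers summed to 193 to 433 CPM in the SOX17-positive and 676 to 1250 CPM in the SOX17-negative WT libraries, and their part in the SPRY4 difference was not tested. KL was the co-receptor that passed in WT (10.6 to 25.3 CPM, +1.24 ± 0.30; not called without SOX17-positive library 1 or 4 or SOX17-negative library 3 or 4, adjusted p = 0.0737 to 0.102).

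IL17RD was the member that edgeR called between genotypes. In SOX17-positive cells of day 7 it was at 17.8, 16.3, 14.5 and 12.8 CPM in WT and at 32.3, 36.7, 32.9 and 29 CPM in KO, with no overlap (KO minus WT +1.12 ± 0.22 on the log2 scale, adjusted p = 0.0448). That was 1 call among 22 tested members, where 0.0566% of all genes were called. In SOX17-negative cells it was at 18.3, 16.5, 12.3 and 9.26 CPM in WT and at 34.6, 30.5 and 31.7 CPM in KO, a difference of like size that did not pass the test (+1.20 ± 0.23, adjusted p = 0.073, with 0.0087% of all genes called). DESeq2 and limma each called 1 member there, IL17RD, and with the library-number run as a block edgeR called it in SOX17-negative (+1.26 ± 0.21, adjusted p = 0.0183) as in SOX17-positive cells (0.0121). At day 12 the SOX17-positive libraries were at 23.6, 35.4, 36.8 and 18.7 CPM in WT and 38.3, 37.7, 37.1 and 37.9 CPM in KO (+0.39 ± 0.21, adjusted p = 1, 0.187% of all genes called). The KO libraries lay above the WT libraries in all 3 settings. The call at day 7 ended without any 1 of its 8 libraries (the log2 difference was then 1.03 at the lowest, with adjusted p = 0.087 to 0.253), and WT and KO differed in RUNX1 itself as given above.

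No other member passed edgeR's test between genotypes in the sorted cells. DESeq2 called 2 in the SOX17-positive cells of day 7, IL17RD and FGFRL1, and its share over all genes is not given here. At an unadjusted p under 0.05, the SOX17-positive cells of day 7 had 4 members, among 860 of all 22978 tested genes. The SOX17-negative cells had 5 members, among 1094 genes, and day 12 had 1 (FGFRL1), among 708 genes. SPRY4 was among these members at day 7 in the SOX17-positive cells (+0.79 ± 0.27, adjusted p = 0.984), with the levels given above, and so were SPRED2 (+0.57, adjusted p = 0.727) and FGFRL1 (-0.81, adjusted p = 0.27). Of the 54 other genes of the pathway, edgeR called 0 in any comparison of KO with WT, sorted or unsorted, with 0 to 5 a comparison at an unadjusted p under 0.05. Limma called 0 as well, while DESeq2 called SDC3 and HS6ST3, which both act in heparan sulfate, in the SOX17-positive cells of day 7 and HS6ST3 in those of day 12. With the run as a block edgeR called 1 of them in each of these comparisons.

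Between days 7 and 12 the SOX17-positive cells gained FGF2, FGF13, DUSP6 and the low member FGF16 in both genotypes. In WT 6 members rose and 4 fell (17.8% of all genes called, 8.57% higher and 9.23% lower) and in KO 4 rose and 2 fell (13.3%, 6% higher and 7.29% lower). FGF2 went from the day 7 levels above to 97.1, 92.6, 104 and 76.1 CPM in WT (+0.90 ± 0.18, adjusted p = 0.000856) and from 57.5, 45.3, 51.7 and 66.3 to 95.9, 85.7, 112 and 76.5 CPM in KO (+0.76 ± 0.18, adjusted p = 0.005). DUSP6 reached 104, 180, 168 and 105 CPM in WT (+0.88 ± 0.17, adjusted p = 0.00049) and went from 88.5, 73, 105 and 89.8 to 123, 155, 148 and 120 CPM in KO (+0.63 ± 0.17, adjusted p = 0.0111; 0.0524 without KO library 2 of day 7).

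SPRY1 was at 58.4, 54, 59.3 and 44.6 CPM in WT at day 7 and at 70.7, 160, 181 and 58.3 CPM at day 12 (+1.17 ± 0.31, adjusted p = 0.0089; +0.87 and 0.0666 without library 3 of day 12). In KO it was at 56, 60, 75.8 and 54.9 CPM and then 71.2, 153, 121 and 66.9 CPM (+0.76 ± 0.31, adjusted p = 0.114; +0.70 and 0.0432 with the run as a block). Libraries 2 and 3 of day 12 were the high ones in both genotypes. IL17RD rose in WT (+0.94 ± 0.22, adjusted p = 0.00308) and its KO change was +0.22 ± 0.21 (adjusted p = 0.599); the difference between those changes was not tested. FGF9 fell in WT from 3.46, 5.07, 4.85 and 3.73 CPM to 1.11, 0.776, 1.3 and 0.744 CPM (-2.06 ± 0.38, adjusted p = 0.000297), with -2.23 ± 0.39 in KO. FGF13 rose in WT from 6.86, 5.26, 7.71 and 5.56 CPM to 13.6, 16.2, 11.6 and 8.99 CPM (+1.03 ± 0.23, adjusted p = 0.00231). In KO it went from 7.52, 5.52, 5.58 and 8.51 CPM to 15.8, 12.4, 7.74 and 10.3 CPM. FGF16 had the largest log2 change in each genotype, from few counts. It was at 0 CPM in every WT library of day 7 and at 0.39, 1.55, 1.19 and 0.473 CPM at day 12. Its KO levels were 0, 0, 0.149 and 0 CPM, then 0.318, 1.27, 0.318 and 0.734 CPM. ETV4 (-1.47 in WT, -1.28 in KO) and ETV5 (-1.20 and -1.01) fell over the same days while FLRT2 rose (217 to 789 CPM in WT, +1.91), and DUSP5 rose in WT (124 to 200 CPM, +0.73).

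At day 12 the CD43-positive cells, CD43 being a surface marker of blood cells, were set against the SOX17-positive CD43-negative cells. In the SOX17-negative CD43-positive cells 14 of 22 tested members were lower and 4 higher, with 66.2% of all genes called (33.8% lower, 32.3% higher). Mitochondrial genes held 8.37% to 8.85% of the counts in these libraries against 4.25% to 5.24% in the CD43-negative cells, and the part of this difference was not tested. FGFR1 was at 10.8, 9.01 and 7.13 CPM against 512, 619, 545 and 543 CPM in the CD43-negative cells (-5.97 ± 0.19, adjusted p = 1.71e-19). IL17RD was at 0, 0.365 and 0 CPM (-7.79 ± 0.44, adjusted p = 1.43e-14), with counts in library 2 alone, FGF13 at 0.064, 0.304 and 0.0594 CPM (-6.40 ± 0.42, adjusted p = 3.65e-13; -7.51 without library 2) and FGF2 at 4.67, 6.39 and 3.27 CPM (-4.29 ± 0.25, adjusted p = 1.62e-14).

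The inhibitors separated again in these cells. SPRY4 was at 2.24, 3.9 and 10.5 CPM against 79.9, 73.8, 74.5 and 60.6 CPM (-3.69 ± 0.35, adjusted p = 5.84e-10; -4.59 without library 3), and SPRY1 at 23.8, 29 and 10.6 CPM (-2.50 ± 0.37, adjusted p = 1.06e-06). SPRY2 was higher, at 55.4, 105 and 64.7 CPM against 19.1, 22, 27.6 and 12.3 CPM (+1.87 ± 0.24, adjusted p = 1.06e-07), and DUSP6 was at 171, 216 and 228 CPM (+0.55 ± 0.18, adjusted p = 0.00942; 0.0701 without library 3). SPRED3 was lower, at 0.32, 0.365 and 0.297 CPM against 1.84, 1.42, 1.81 and 3.52 CPM (-2.69 ± 0.46, adjusted p = 9.68e-06). FGF12 (-3.14 ± 0.33) and FGF11 (-2.16 ± 0.19) were also lower. Per length the receptors were at most 2.08 (FGFRL1), with FGFR1 at 0.74 on the log2(RPKM + 1) scale. FLRT2 (-7.05, and -8.49 without library 2), KL (34.5 to 0.325 CPM, -6.70, and -8.96 without library 2) and DUSP5 (200 to 25.3 CPM, -2.99) were lower and ETV5 was higher (12.6 to 33.5 CPM, +1.41).

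The SOX17-positive CD43-positive cells, 2 libraries, lay between for the members called. FGFR1 was at 317 and 234 CPM (-1.07 ± 0.17, adjusted p = 2.19e-05), FGF2 at 32.9 and 41.6 CPM (-1.37 ± 0.24, adjusted p = 9.32e-05), IL17RD at 11.4 and 16.7 CPM (-1.09 ± 0.28, adjusted p = 0.00488), SPRY4 at 47.7 and 29.3 CPM (-0.97 ± 0.35, adjusted p = 0.0391) and SPRY2 at 28.9 and 44.6 CPM (+0.79 ± 0.27, adjusted p = 0.0278). FGF13 was at 4.31 and 5.82 CPM (-1.38 ± 0.31, adjusted p = 0.0013). Each of these 6 called members lay between the means of the other 2 groups. They were picked by the test against 1 of those groups, and not every other member lay between: SPRED1 and FGFR4 had means below both. Of the 6, 1 was higher and 5 lower than in CD43-negative cells, and 26.5% of all genes were called (15.5% higher, 10.9% lower). Endothelial markers summed to 5780 to 5870 CPM and blood markers to 621 to 788 CPM in these 2 libraries, and mitochondrial genes held 7.23% and 6.46% of their counts; the part of these was not tested. Single libraries decided 3 of these calls: SPRY4 was not called without CD43-negative library 1, 2 or 3 or CD43-positive library 2 (adjusted p = 0.0543 to 0.328). SPRY2 was not called without CD43-negative library 1 or 4 or CD43-positive library 2 (0.0666 to 0.411), nor IL17RD without CD43-positive library 1 (0.102).

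**Figure D4:**
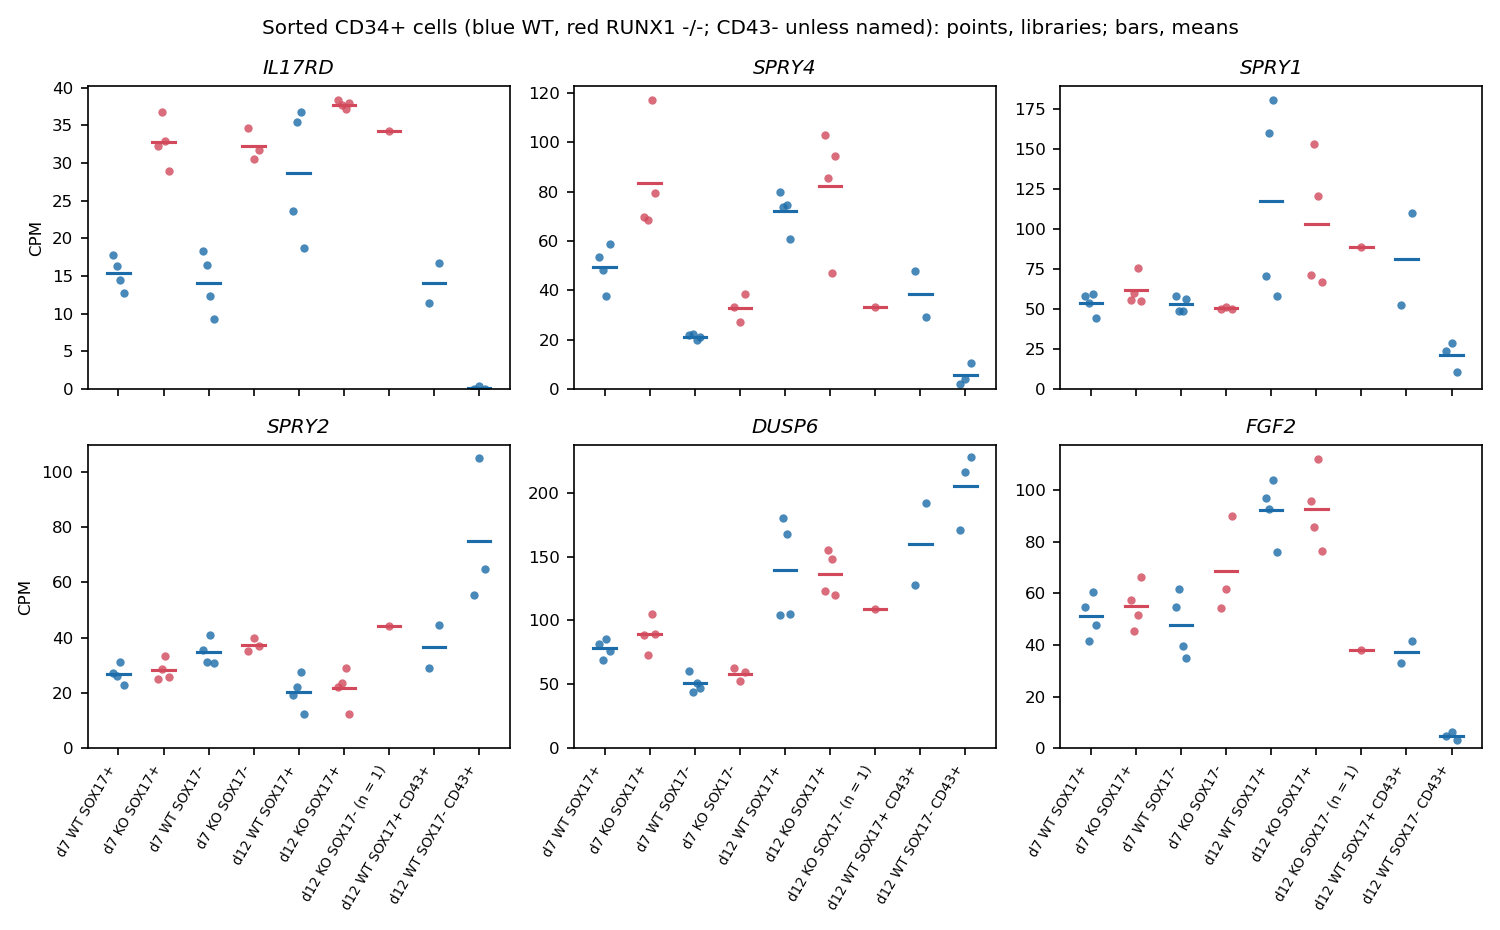
Levels of IL17RD, SPRY4, SPRY1, SPRY2, DUSP6 and FGF2 in each sorted library (CPM, linear axes from 0) by group; points are libraries and bars are group means. SPRY4 is higher in SOX17-positive than SOX17-negative cells of day 7 in each genotype, IL17RD is higher in KO than in WT cells of day 7, and IL17RD, SPRY4, SPRY1 and FGF2 are lowest in the SOX17-negative CD43-positive cells of day 12.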

How the data were processed

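RNA of 65 libraries was measured by sequencing of total RNA. The values used are whole-number fragment counts per gene as deposited by the authors, for 58302 genes (GRCh38, with cutadapt 1.18, featureCounts and R 3.2.2 named in the submitters' processing notes), and a deposited table of log2(RPKM + 1) values after TMM scaling, per the file headers. No source used here gives the aligner or the strand setting of the counts, and overlapping and antisense genes may share reads. Groups follow the sample titles. Here CPM were computed from plain library totals. edgeR 4.0.16 (R 4.3.3) was run on the counts as deposited in 6 fits over groups of 1 experiment (24 unsorted mesoderm, 12 endoderm, 21 WT libraries of both protocols, 28 sorted, 8 and 7 libraries), with TMM factors, genes kept by filterByExpr (10 counts in the smallest group, 15 in total), the quasi-likelihood F test, and Benjamini-Hochberg adjustment over all genes of a fit, for 23 comparisons. SE were taken as the size of the log2 change over the root of its F statistic. Intervals of counts are exact at 95% and cover counting error only. The scripts were tested on simulated data. No library of a group repeated another, as the chi-square over genes per degree of freedom was 4.469 to 88.23 for the 85 pairs. Alternatives were DESeq2 1.42.0, limma 3.58.1 on the deposited log2 values, median-of-ratios size factors, no filter, only the compared groups, a replicate block, a block for the library-number run, and leaving out each replicate; leaving out libraries 1 of day 0, or WT 3 and KO 4 of day 4, was chosen after seeing the data. Same-numbered libraries deviated together (each pair's correlation above 0.1) only for KO against WT at day 0 (0.232 to 0.774) and in SOX17-positive cells of day 7 (0.189 to 0.404), and for WT SOX17-positive cells of days 7 and 12 (0.132 to 0.219); the labels do not say what the numbers mark.

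The members and lists were chosen with earlier results of these data known. Values in every library are given, per comparison, for members called with a mean of at least 1 CPM in the higher group, at most the 8 of largest change, and for FGF2, FGFR1, SPRY1, SPRY2, SPRY4, DUSP6 and IL17RD; other members by ranges or counts; and from the 4 other lists of the pathway at most 4 called genes per list and comparison, with ETV4, ETV5 and DUSP5. The lone day 12 library of KO cells negative for both SOX17 and CD43 was not tested.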

Additional observations from a re-analysis of the deposited data

Results flagged for a closer look

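In groups of 4 libraries, a library far from the other 3 was found in 25 of 230 tests of 1 member in 1 group (10.9%). The rule's chance rate of about 1 in 20 holds for independent values with a normal spread. Here it was applied to untransformed CPM, and members share libraries, so the 2 rates cannot be set against each other. At day 0 the library numbered 1 was the high one for FGF1 (45.5 CPM in WT, 40.4 CPM in KO), FGFR2 (131 and 123 CPM), SPRY2 (97.7 and 84.2 CPM), SPRY4 (501 and 465 CPM) and SPRED3 (16.6 and 11.1 CPM), as well as for SPRED1 in WT (190 CPM) and for FGFR4 (69.9 CPM) and IL17RD (321 CPM) in KO. At day 4 FGF19 was high in WT library 3 (204 CPM) and KO library 4 (527 CPM), FGF3 in KO library 4 (10.3 CPM), FGF13 in WT library 3 (11.4 CPM), FGF11 in WT library 1 (12.2 CPM), FGF18 in libraries 1 of WT (10 CPM) and KO (15.7 CPM), and IL17RD in KO library 1 (169 CPM). IL17RD was also high in KO library 4 of day 2 (318 CPM). In sorted cells the high libraries were WT SOX17-positive 4 of day 7 for FGFR2 (36.2 CPM), WT SOX17-positive 3 of day 7 for FGFR4 (4.96 CPM) and KO SOX17-positive 4 of day 12 for SPRED3 (2.45 CPM).

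The change from day 0 differed between the protocols (endoderm minus mesoderm, log2, edgeR adjusted p under 0.05). By day 2 the differences were 6.79 for FGF17, 3.49 for FGF16, 1.72 for FGF11, 1.71 for FGF8, 1.62 for FGF12, 1.19 for IL17RD, 1.15 for SPRY1, 1.11 for SPRED1, 0.70 for FGFRL1, -0.64 for FGFR1, -1.27 for FGF2 and -3.82 for FGF10. By day 4 they were 12.88 for FGF17, 6.95 for FGF16, 6.09 for FGF8, 2.98 for FGF13, 2.48 for FGF12, 2.03 for SPRY4, 1.66 for SPRY2, 1.37 for FGFR4, 0.92 for SPRED2, 0.88 for IL17RD, 0.82 for SPRED1 and 0.66 for FGFRL1. The lower ones by day 4 were -1 for FGFR1, -1.57 for FGF2, -1.78 for DUSP6, -2.44 for FGFR2, -2.55 for SPRY1, -3.06 for FGF4 and -8.33 for FGF19. The day 4 value of FGF16 rests on 1 count in the mesoderm WT libraries of that day, and that of FGF4 on 3 counts in the endoderm libraries.

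The single KO library of SOX17-negative CD43-negative cells at day 12 entered no comparison. It lay above the highest of the 4 WT SOX17-positive CD43-negative libraries of that day for 8 of the 19 members at 1 CPM or more: FGF10 (5.21 CPM), FGF23 (2.11 CPM), FGF11 (37.2 CPM), FGFR2 (32.6 CPM), FGFR3 (6.55 CPM), FGFR4 (7.26 CPM), SPRY2 (44.2 CPM) and SPRED2 (37.6 CPM). It lay below the lowest of them for 5 of the 19. The 19 were picked by their level in this library itself. Among members with a mean of 1 CPM or more in the 4 WT libraries, 6 lay below the lowest. The share over all genes was not computed, so these counts are descriptions. Mesenchyme and smooth muscle markers summed to 994 CPM in it against 228 to 361 CPM in those libraries, and their part was not tested. With 1 library there is no replicate check.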

How the results depend on the processing

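Of 222 called member results, 168 kept direction and call under every alternative run, 54 lost the call in at least 1, and 2 of these 54 reversed: FGF19 (-0.02) and FGF3 (-0.49) between days 2 and 4 in KO, without KO library 4 or without both WT 3 and KO 4 of day 4. Leaving out 1 replicate gave log2 changes of -0.49 to 2.97 for FGF3 and -0.02 to 3.17 for FGF19. Counts of called members moved by over 1.5 times only where they were small or where no filter was set: 24 without the filter for SOX17-positive day 7 against day 4; 4 without the filter, 4 with the run block and 1 with the compared groups only for SOX17 in WT; 3 without the filter, 2 by limma and 2 with the compared groups only for SOX17 in KO; 2 by DESeq2 for KO against WT in SOX17-positive cells of day 7; and 1 each without the filter, by DESeq2, by limma, with the replicate block and with the run block for KO against WT in SOX17-negative cells of day 7. Leaving out 1 replicate gave 0 to 2 calls for SOX17 in WT, 0 to 1 in KO, and 0 to 0 for each comparison of KO with WT. It gave 14 to 18 and 18 to 19 for the WT mesoderm steps, 13 to 15 and 16 to 19 for the KO steps, 11 to 14, 13 to 17 and 8 to 11 for the endoderm steps, 11 to 14 and 16 to 20 between protocols, and 11 to 14 and 22 to 22 for day 7 cells against day 4 and against endoderm. It gave 8 to 10 and 4 to 8 from day 7 to 12 in WT and KO, and 15 to 19 and 4 to 6 for the CD43-positive cells. Shares of all genes called under these alternatives are not given here, so the counts are descriptions.

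With the replicate block, 217 of the 222 results kept their call and 5 lost it: FGF3 and FGF19 between days 2 and 4 in KO (adjusted p = 0.22 and 0.122), FGF14 between days 2 and 4 in endoderm (0.0549), FGF12 for day 7 against day 4 (0.0749) and SPRY4 in SOX17-positive CD43-positive cells (0.0542). In the comparisons whose numbers pair, the block changed no call of a member. Members under about 1 CPM rest on few counts. FGF5, FGF6, FGF7, FGF20 and FGF21 did not pass the filter of the main fits, so their differences were not tested there. A difference in them is not excluded: FGF21 had 2, 8, 8 and 6 counts in the WT mesoderm libraries of day 0 and 0 in each of day 2. Where leaving out a library leaves 1 in the SOX17-positive CD43-positive group, that library is assumed to vary like the other groups.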
